A study of Neurospora crassa with 2 samples.

Results

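The quelling and RNA interference genes qde-1, qde-2, qde-3, dcl-2 and qip were examined in the mRNA-seq of Neurospora crassa hyphae. They were chosen by name, as the rows of the deposited table with these symbols, and all 5 were present among the 10559 genes of the table. The wild type (WT) was cultured in 2% glucose medium in constant darkness and its polyA RNA was sequenced after 20 hr (DD20) and after 12 hr (DD12) in the dark. Both groups share the genotype, given as wild type in the labels, and according to the study's methods the WT strain carries the bd allele. The table has 1 column per time point. The study describes duplicate RNA samples, each pooled from several independent samples, and does not say how they make up a column, so a column is treated here as a single library and the difference between DD20 and DD12 has no replicate check and no p-value.

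Quelling is the form of RNA interference by which vegetative Neurospora silences repeated transgenes after transcription. In this pathway the DNA helicase QDE-3 and the polymerase QDE-1 lead to double-stranded RNA from the repeat, Dicer cuts that RNA into small interfering RNAs, and the Argonaute protein QDE-2 carries them to the matching mRNA. QIP, an exonuclease, removes the passenger strand of the small RNA duplex from QDE-2. Hairpin RNA, the agent used in the same study to silence prp5 in another strain, enters this pathway at the Dicer step.

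Values are RPKM, the reads on a gene scaled to its length in kilobases and to the size of the library. An RPKM is a whole number of reads times a step set by gene length and library total, so the totals could be recovered from the values as 29960356 reads at DD20 and 30712952 reads at DD12. With these totals a single length gave whole reads at both time points for each of the 5 genes, and their reads ranged from 249 to 3639 at DD20 and from 241 to 3710 at DD12. The 95% intervals given below are exact and were computed on read pairs. They cover counting error only and compare the columns, not the conditions.

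None of the 5 genes differed 2-fold between the time points. Ratios were taken as DD20 over DD12 on the log2 scale after 1 RPKM had been added to each value, which makes the differences of low genes look smaller than they are. On this scale the 5 genes lay between -0.25 and 0.36 with a median of 0.049, beside a median of 0.15 over the 7414 expressed genes, those whose RPKM averaged 1 or more. Among these 7414 genes, 55 (0.742%) were at least 2-fold higher at DD20 and 173 (2.33%) were at least 2-fold higher at DD12. With ratios centred on the median of all genes the numbers were 31 and 256, and after each column was rescaled on all but its 10 most abundant genes they were 28 and 267. The same rescaling put the median of all genes at -0.025, with 46.8% of them higher at DD20, so whether most genes were higher or lower depends on the scaling. The helicase and polymerase genes qde-3 and qde-1 were higher at DD20, the exonuclease gene qip was lower at DD20, and for dcl-2 and the Argonaute gene qde-2 the counting interval of the ratio included 0. In RNA from whole cultures, a smaller share of some cells and less RNA per cell cannot be told apart.

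The interval lay above 0 for 2 of the 5 genes and below 0 for 1 of the 5. Across the 6022 expressed genes whose reads were resolved, 44.7% had an interval above 0 and 18.3% had an interval below 0, so these counts do not set the quelling genes apart. With 1 RPKM added, the lower and upper quartiles of the log2 ratio over all expressed genes were -0.11 and 0.36. On this scale 4 of the 5 quelling genes lay between them (qde-1 just inside the upper), all but qip. Without a pseudocount the read ratio was 0.45 for qde-3 and 0.42 for qde-1. Quartiles of read ratios were not computed, and the shares of expressed genes exceeded that are given below also hold with 1 RPKM added.

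**Figure D1:**
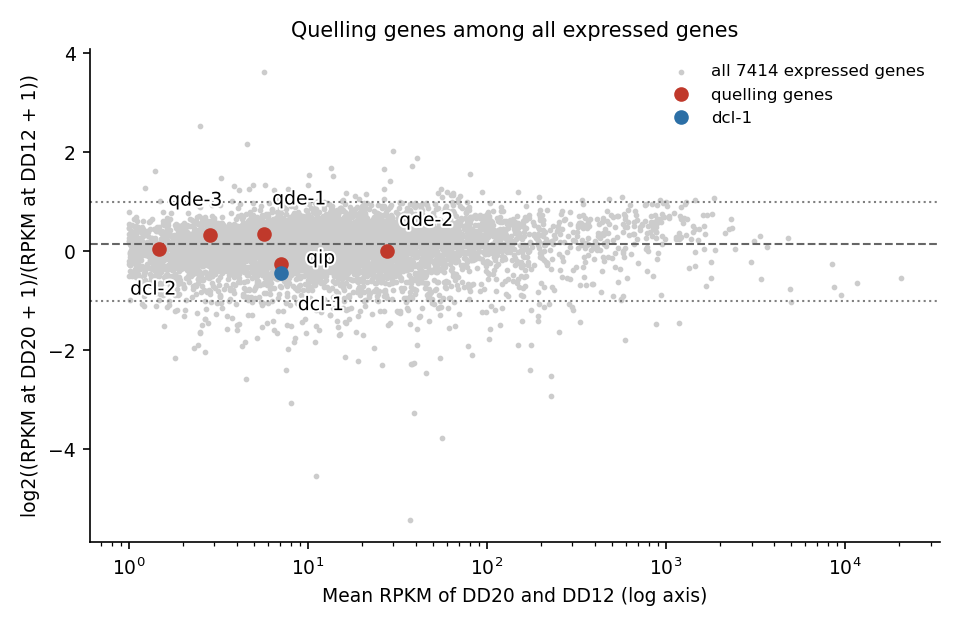
Log2 ratio of DD20 over DD12, with 1 RPKM added, against the mean RPKM of both time points (log axis) for the 7414 expressed genes (grey), the 5 quelling genes (red) and dcl-1 (blue). The dashed line is the median of all genes (0.15) and the dotted lines mark 2-fold. All 5 quelling genes lie well inside the dotted lines.

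qde-3 encodes a RecQ DNA helicase that acts in quelling and in DNA repair. Its level was 3.27 RPKM at DD20, from 708 reads, against 2.39 RPKM at DD12, from 531 reads. The level at DD20 was thus 1.37-fold that at DD12, with a counting interval of 1.16-fold to 1.61-fold. The log2 ratio of 0.33 was higher than that of 72.2% of the expressed genes. The length that gave whole reads was 7225 nt, the longest of the set.

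qde-1 encodes the RNA-dependent RNA polymerase of quelling, which can also copy single-stranded DNA. It had 6.48 RPKM at DD20, from 1059 reads, against 4.85 RPKM at DD12, from 812 reads. This was a level 1.34-fold higher at DD20, with an interval of 1.17-fold to 1.53-fold. The log2 ratio of 0.36 exceeded that of 74.98% of the expressed genes. Its recovered length was 5451 nt. The genes of the helicase and the polymerase, which act upstream of the double-stranded RNA, were therefore higher at DD20 by similar factors.

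dcl-2 encodes the Dicer that makes most of the small RNAs of quelling. It was the lowest of the 5 genes, with 1.52 RPKM at DD20, from 249 reads, and 1.43 RPKM at DD12, from 241 reads. The fold was 1.06, with an interval of 0.818-fold to 1.37-fold, so read counting gave no difference and would also allow a level 1.37-fold higher at DD20. The log2 ratio of 0.049 exceeded that of 38.8% of the expressed genes.

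qde-2 encodes the Argonaute protein that holds the small RNA and cuts the target. It had 27.6 RPKM at DD20, from 3639 reads, and 27.4 RPKM at DD12, from 3710 reads. Its log2 ratio was 0.0076. With the most reads of the set it had the narrowest interval around its fold of 1.01. The bounds leave room for a level up to 1.07-fold higher or down to 0.942-fold at DD20. The ratio of qde-2 exceeded that of 34.5% of the expressed genes.

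qip encodes the QDE-2-interacting exonuclease. Its level was 6.38 RPKM at DD20, from 514 reads, against 7.77 RPKM at DD12, from 642 reads. The fold was 0.821, with an interval of 0.694-fold to 0.970-fold, and the log2 ratio of -0.25 exceeded that of 17.1% of the expressed genes. In RefSeq assembly NC12 the end of qip overlaps tim14, which had 34.8 RPKM at DD20 and 32.3 RPKM at DD12. At the mean density of tim14 the shared end would hold 43.8 reads at DD20 and 41.7 reads at DD12, and without them the log2 ratio of qip was -0.27. How the reads on this end were assigned is not given in the sources used here.

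**Figure D2:**
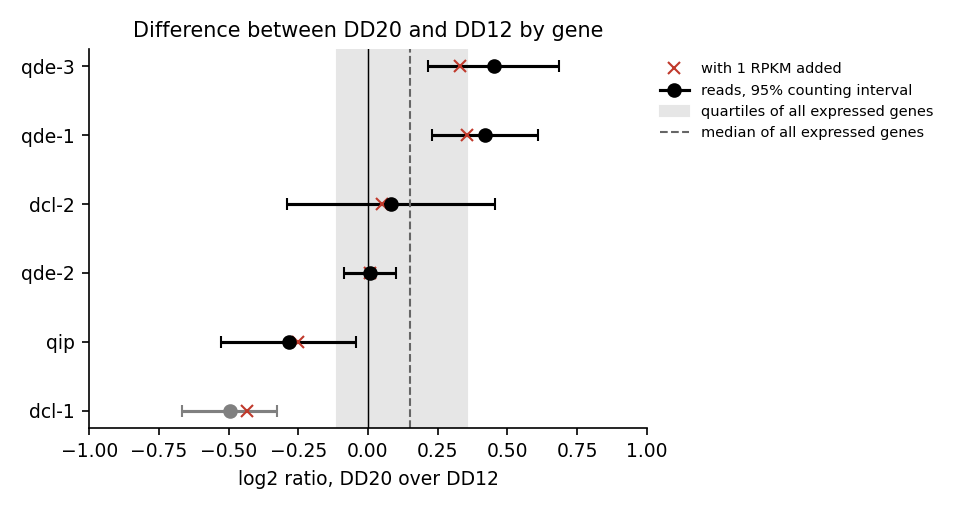
Log2 ratio of DD20 over DD12 for the 5 quelling genes and dcl-1 (grey). Circles are ratios of recovered reads with their 95% counting intervals, and red crosses are ratios with 1 RPKM added. The dashed line is the median of all expressed genes (0.15) and the shaded band runs between their quartiles (-0.11 to 0.36). Line and band are on the scale of the crosses, not of the circles. The median read ratio of the resolved genes was 0.17. The intervals of qde-3 and qde-1 lie above 0, those of qip and dcl-1 lie below 0, and those of dcl-2 and qde-2 include 0.

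As RPKM is a value per length, the levels can also be ordered. At DD20 the order was qde-2, qde-1, qip, qde-3 and dcl-2, and at DD12 it was qde-2, qip, qde-1, qde-3 and dcl-2. At DD20 qde-1 and qip had overlapping counting intervals, 5.94 to 7.06 RPKM and 5.62 to 7.21 RPKM, so their order is not resolved there. At DD12 their intervals did not overlap, with 4.39 to 5.35 RPKM for qde-1 and 6.95 to 8.67 RPKM for qip. All other neighbours in either order had intervals that did not overlap. Of all genes in the table, 81.7% at DD20 and 82.7% at DD12 had a lower level than qde-2, whereas for dcl-2 the shares were 33.2% at DD20 and 32.2% at DD12.

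The mRNA of the set was dominated by the Argonaute gene. The 5 genes summed to 45.2 RPKM at DD20 and 43.9 RPKM at DD12, and qde-2 made up 61.0% of the sum at DD20 and 62.5% at DD12. qde-1 made up 14.3% at DD20 and 11.1% at DD12, and qip 14.1% at DD20 and 17.7% at DD12. The share of qde-3 was 7.23% at DD20 and 5.45% at DD12. The Dicer gene dcl-2 held 3.36% at DD20 and 3.27% at DD12, so that the level of qde-2 was many times that of dcl-2 in either column.

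**Figure D3:**
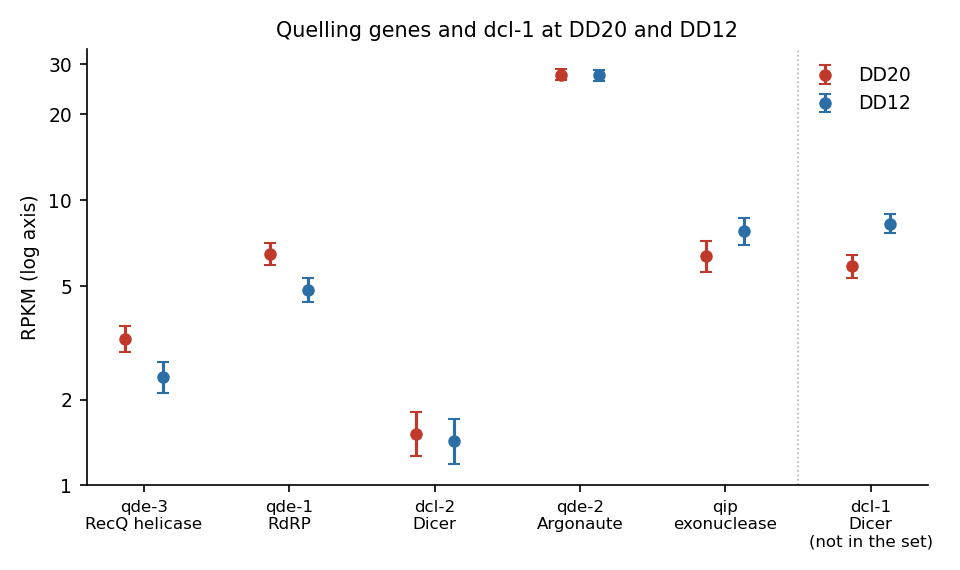
RPKM (log axis) of the 5 quelling genes, in the order of their steps in the pathway, and of dcl-1 at DD20 (red) and DD12 (blue), with 95% counting intervals. qde-2 stands highest, at 27.6 RPKM at DD20 and 27.4 RPKM at DD12, and dcl-2 lowest, at 1.52 RPKM at DD20 and 1.43 RPKM at DD12.

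Because a library total multiplies every gene by the same factor, the difference between the read ratios of a pair of genes does not depend on it. All 10 pairs of quelling genes were compared in this way, with 95% counting intervals from a normal approximation. For 5 of them the interval of the difference excluded 0. The share of such pairs among all genes was not computed, so this count cannot be read as a trait of the set. The largest difference was that of qde-3 and qip, 0.74 ± 0.17 on the log2 scale (counting SE), with an interval of 0.41 to 1.07. That of qde-1 and qip was 0.70, with an interval of 0.40 to 1.01. The RPKM of qde-1 was 1.02 times that of qip at DD20, against 0.624 times at DD12. The read ratio of qde-3 exceeded that of qde-2 by 0.44 (0.20 to 0.69) and that of qde-1 did so by 0.41 (0.20 to 0.62), while that of qde-2 exceeded that of qip by 0.29 (0.039 to 0.55). The ratios of qde-3 and qde-1 differed by 0.032, with an interval of -0.26 to 0.33, so counting did not separate them and would allow a difference of up to 0.33. The interval of each of the 4 pairs with dcl-2 included 0.

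**Figure D4:**
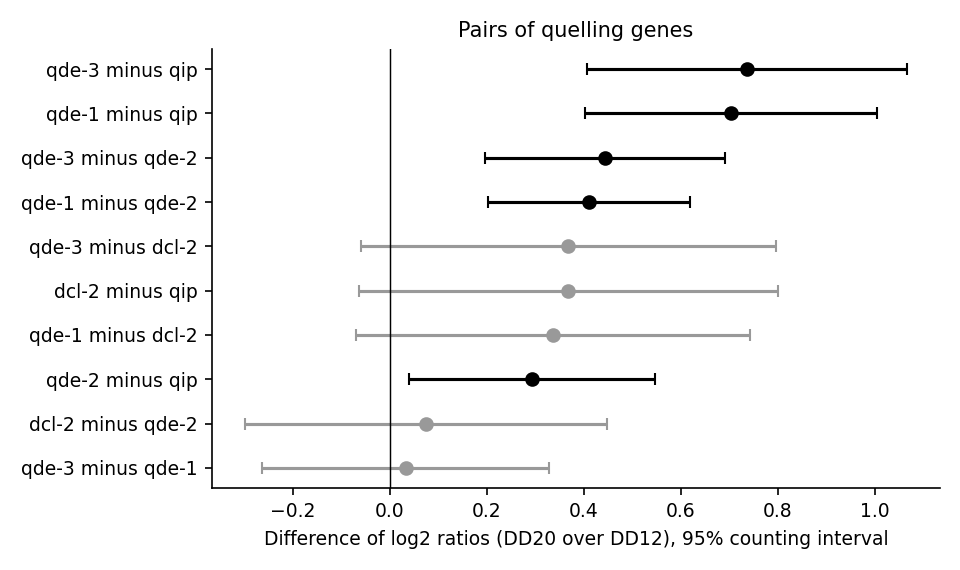
Difference of the log2 read ratios (DD20 over DD12) for the 10 pairs of quelling genes, with 95% counting intervals. Black intervals exclude 0 (5 pairs) and grey intervals include it (5 pairs). The differences run from 0.032 for qde-3 and qde-1 to 0.74 for qde-3 and qip.

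The genes were also set against the median read ratio of the 6022 resolved genes, 0.17 on the log2 scale as deposited. The intervals of qde-3 (0.22 to 0.69) and qde-1 (0.23 to 0.61) lay above this median, those of qde-2 (-0.086 to 0.10) and qip (-0.53 to -0.044) lay below it, and that of dcl-2 (-0.29 to 0.46) included it. qde-2 thus lay below the median gene, although its own ratio was near 0. The share of the 6022 genes with an interval excluding this median was not computed. These positions therefore cannot be read as a trait of the set.

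The longest genes had a higher median ratio than all expressed genes (0.15). They were the 603 expressed genes with a recovered length from 4077 to 32389 nt, the longest of 10 length classes. Their median was 0.24 on the log2 scale, and 4 of the quelling genes are in this class. Relative to that median, qde-1 was at 0.11, qde-3 at 0.089, dcl-2 at -0.19 and qde-2 at -0.24. For qip, at 2689 nt, the class median was 0.15 and the ratio relative to it was -0.40. On read ratios the median of the longest class was 0.28, which lies inside the intervals of both qde-3 and qde-1, so counting did not set these 2 genes above genes of like length. Their ratios exceeded those of 64.7% (qde-3) and 67.8% (qde-1) of the class. The part of length in the ratios of the quelling genes, and in the differences between pairs of them, was not tested.

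Neurospora has a further RNA silencing pathway, meiotic silencing by unpaired DNA, which acts in the sexual phase and uses paralogs of the quelling proteins. From a list of 19 symbols, 5 were matched in the table and 14 had no match by symbol or synonym. Of the 5, only dcl-1 counted as expressed. sad-1, the paralog of qde-1, was listed at 0 at DD20 and had 0.020 RPKM at DD12, and sad-2, whose protein anchors SAD-1, was listed at 0 at both time points. sms-2, the Argonaute paralog of qde-2, had 3 reads (0.030 RPKM) at DD20 and 2 reads (0.019 RPKM) at DD12. The helicase gene sad-3 had 4 reads (0.038 RPKM) at DD20 and 2 reads (0.019 RPKM) at DD12. For sad-2, 0 reads allow a level of up to 0.030 RPKM at DD20 and 0.029 RPKM at DD12. This takes 3 single reads over its RefSeq span. The limit would be higher on reads divided by 2, as used for the intervals, or over a length shorter than the span. In these hyphae the transcripts of the quelling polymerase and Argonaute were thus detected and those of their meiotic paralogs were at or near 0.

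dcl-1, the second Dicer gene, acts in meiotic silencing and can replace dcl-2 in quelling. It had 5.87 RPKM at DD20, from 942 reads, against 8.28 RPKM at DD12, from 1362 reads, which is 3.87 times the level of dcl-2 at DD20 and 5.77 times at DD12. The fold was 0.709, with an interval of 0.629-fold to 0.799-fold, and the log2 ratio was -0.43. In NC12 the end of dcl-1 overlaps pdx-4, which had 143 RPKM at DD20 against 299 RPKM at DD12. At the mean density of pdx-4 the shared end would hold 158 reads at DD20 and 340 reads at DD12. Without these reads the log2 ratio of dcl-1 was -0.29 with 1 RPKM added. The read ratio was -0.35 with an interval of -0.54 to -0.15, against -0.50 with all reads. The multiples of the dcl-2 level were taken with all reads and would be lower without those of the shared end. The part of pdx-4 reads in the level of dcl-1 beyond this was not tested.

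A list of 12 recombination, checkpoint and RPA genes was examined because recombination factors and the single-strand binding protein RPA act with QDE-3 and QDE-1 in small RNA production. The median over the 10 matched genes was 0.090 on the log2 scale, with 5 higher and 5 lower at DD20, none by 2-fold, while 66.2% of all expressed genes were higher at DD20 in the deposited scaling. With 1 RPKM added the highest was rpa-1, the large subunit of RPA, with 24.9 RPKM at DD20 against 19.4 RPKM at DD12, a log2 ratio of 0.34, while on plain RPKM the kinase gene mus-9 was higher still, at 1.32-fold against 1.28-fold for rpa-1. The lowest was mus-58 (un-1 in the table), with 7.72 RPKM at DD20 against 11.3 RPKM at DD12, a log2 ratio of -0.50.

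The genes of DNA methylation and heterochromatin, a silencing system of Neurospora that does not need the quelling genes, were at a median of 0.20 on the log2 scale for the 6 matched of 7. Of these, 5 were higher at DD20 and none differed 2-fold. The highest was dim-9, with 6.38 RPKM at DD20 against 4.71 RPKM at DD12, and the lowest was dim-5, the histone H3 lysine methyltransferase gene, with 2.82 RPKM at DD20 and 2.93 RPKM at DD12. No symbol of a list of 6 genes of other small RNA classes was matched, and these were not analysed here.

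**Figure D5:**
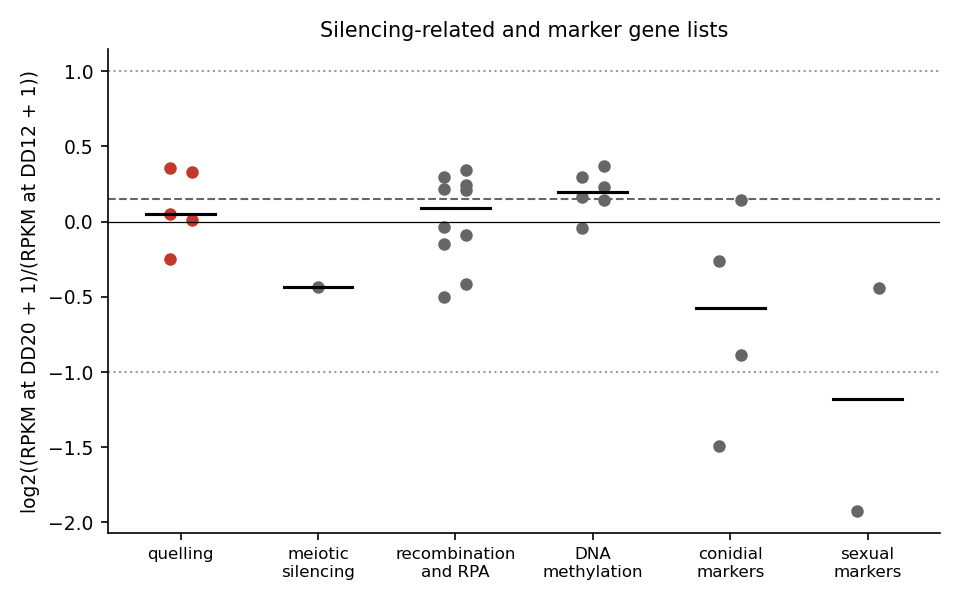
Log2 ratio of DD20 over DD12, with 1 RPKM added, of the expressed genes of 6 lists. Points are genes, black bars are list medians, the dashed line is the median of all expressed genes (0.15) and the dotted lines mark 2-fold. The 5 quelling genes (red) run from -0.25 to 0.36 and the recombination and RPA genes from -0.50 to 0.34.

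Some genes used as markers of other developmental states also differed between the columns. Whether developmental state itself differed was not tested. The hyphal gene hex-1, of the Woronin body, was abundant at both times, with 2395 RPKM at DD20 and 1861 RPKM at DD12. Of the 6 conidiation genes 4 were expressed, and their list summed to 7693 RPKM at DD20 against 9216 RPKM at DD12, nearly all from eas. con-6 had 1.64 RPKM at DD20 against 6.43 RPKM at DD12, con-10 had 0.790 RPKM at DD20 against 2.31 RPKM at DD12, and eas had 7682 RPKM at DD20 against 9199 RPKM at DD12. fl had 7.72 RPKM at DD20 and 6.90 RPKM at DD12, with a log2 interval of -0.056 to 0.38 that includes 0. Below the filter, con-8 had 15 reads at DD20 against 42 reads at DD12, and con-13 had 1 read at DD20 and 10 reads at DD12, with an interval that includes 0. Of the 4 sexual development genes 2 were expressed and both were lower at DD20, app with 32.0 RPKM at DD20 against 124.0 RPKM at DD12 and asd-1 with 15.9 RPKM at DD20 against 22.0 RPKM at DD12. Below the filter, poi-2 had 13 reads at DD20 against 50 reads at DD12, and asd-3 had 11 reads at DD20 and 18 reads at DD12, with an interval that includes 0. The list summed to 48.5 RPKM at DD20 against 147.8 RPKM at DD12. The part of developmental state in the ratios of the quelling genes was not tested.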

How the data were processed

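The authors deposited the data as RPKM values in a single table, with a column for DD20 and a column for DD12. The submitters' processing notes name CASAVA 1.8 and HISAT. The counting method, strand handling and genome build are not given in the sources used here, so no coordinates are reported, and reads of a gene and of an antisense transcript cannot be told apart. The members and gene lists were chosen with earlier results of these data known.

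Columns were assigned by their titles. Library totals were recovered by a search for the value at which genes gave whole reads over their RefSeq span (assembly NC12, entries for 10526 genes). Gene lengths were then taken as whole numbers from 30 nt to the span that gave whole reads in both columns within 1e-04 reads plus 2e-07 of the count. Intervals (Clopper-Pearson and Poisson formulas, 95%) used reads divided by 2, and odd counts then gave fractions of a pair. The reason was that 60.4% of 144 genes with up to 10 reads at DD20 and 65.4% of 130 at DD12 had even numbers. The steps were tested on simulated data. Named genes were the members, the matched meiotic silencing genes, the extremes of the other lists and, for each member, the 2 genes with a symbol nearest to it in log2(RPKM + 1), of which 1 is not reported here. The markers and overlapping neighbours named were taken for checks. Alternatives were pseudocounts of 0.1 and 5 RPKM, centred and rescaled columns, totals without rRNA reads, other filters and ratios without a pseudocount. The length classes and the removal of reads on shared gene ends were added after the data were examined. A planned comparison of protein sequences was not run. Python 3.11.15, pandas 2.3.3, numpy 2.4.6, scipy 1.17.1 and matplotlib 3.10.9 were used.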

Additional observations from a re-analysis of the deposited data

How the results depend on the processing

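No paired analysis was possible because DD20 and DD12 have a single column each, which also leaves no replicate to omit. No quelling gene reached 2-fold under any alternative run (0 of 5, or 0 of 1 when the filter was raised to 10 RPKM). Under the alternatives with a pseudocount, the median of the set ranged from -0.19 to 0.078. The ratios of qde-3, qde-1 and qip kept their sign under all alternatives run. Ratios without a pseudocount lie inside the gene's counting interval by construction, and the wide interval of dcl-2 held all its values. With these included, 30 of 41 values lay within the gene's counting interval. The exceptions for qde-3 were 0.16 with a pseudocount of 5, 0.18 with centred ratios, 0.19 when the 10 most abundant genes were kept out of the rescaling and 0.089 less the median of genes of like length. For qde-1 they were 0.22, 0.21, 0.19 and 0.11 under the same alternatives. For qde-2 the value was -0.14 after centring, -0.18 with the 10 most abundant genes kept out of the rescaling and -0.24 less the median of genes of like length, and its sign, like that of dcl-2, depends on the scaling. The added pseudocount shrinks low genes by construction, and a rescaling or centring shifts all genes together. The number of quelling genes with an interval excluding 0 was 3 on reads divided by 2 and 3 on single reads. An interval excluding the median of all genes was found for 4, and the share of all genes with such an interval was not computed. The counts over all genes moved by more than 1.5 times, against 55 higher at DD20, to 99 and 29 with pseudocounts of 0.1 and 5, 31 after centring and 28 when these 10 genes were kept out, and, against 173 higher at DD12, to 91 with a pseudocount of 5, 267 without the 10 most abundant genes and 102 with the filter at 10 RPKM, where fewer genes were counted. Depth limits dcl-2 most, as its interval spans 0.818-fold to 1.37-fold.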

Other observations

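The genes with a symbol nearest to each quelling gene in the plane of log2(RPKM + 1) at DD20 and DD12 were sought over 2 columns, which is too few to describe a shared pattern. For qde-3 they were mus-9 (distance 0.074) and vad-1 (0.087), and for qde-1 dim-9 (0.041) was nearest. mus-9 had 3.36 RPKM at DD20 against 2.55 RPKM at DD12. gh76-4 (0.013) and qa-2 (0.045) lay nearest to dcl-2, bdp-3 (0.041) and pex13 (0.058) to qde-2, and het-6 (0.018) and fsd-1 (0.096) to qip. het-6 had 6.29 RPKM at DD20 against 7.76 RPKM at DD12.

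Of the 10 genes that flank the quelling genes in assembly NC12, 9 were expressed. Their log2 ratios ranged from -0.58 to 0.21 with a median of 0.027, and 5 were higher at DD20. The genes beside qde-1 went the other way from qde-1 itself, as sah-3 had 11.02 RPKM at DD20 against 12.0 RPKM at DD12 and NCU16695 had 1.89 RPKM at DD20 against 3.32 RPKM at DD12. Both flanking genes of qde-3 had smaller ratios than qde-3, at 0.099 for NCU08597 and 0.12 for NCU08599. These neighbours were named after their values were seen, and no explanation was tested.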
